A study of Mus musculus with 2 samples.

Results

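The genes described here are the 6 members of the platelet-derived growth factor (PDGF) system that had a row in both count matrices, namely the receptor genes Pdgfra and Pdgfrb and the ligand genes Pdgfa, Pdgfb, Pdgfc and Pdgfd. They were chosen by gene symbol, as 6 of the 32285 genes measured, and each symbol occurred once. The cells came from the stromovascular fraction (SVF) of perigonadal white adipose tissue (gWAT) of male mice carrying Cyp1a1Cre and R26LSL-eYFP, which are Cyp1a1 fate reporters. In these mice, Cre driven by the Cyp1a1 promoter leaves a permanent eYFP mark in cells that have expressed Cyp1a1, a target of the aryl hydrocarbon receptor (AHR). The LFD group ate a purified diet with 10% fat (D12450J) and the HFD group one with 60% fat (D12492), in both cases for 12 weeks. All mice of both groups were given FICZ, which activates the AHR, at a dose of 10 mg/kg and 5 days ahead of tissue collection, so there was no group without it. Live eYFP+ cells were sorted by FACS, and 1 droplet library with 3′ counting was made per diet. Cells without the mark were not sampled, no cell could be assigned to a mouse, and the diets are compared through 2 libraries without replication.

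PDGF ligands are secreted dimers that bind and cross-activate the receptor tyrosine kinases PDGFRA and PDGFRB. PDGF-A and PDGF-C act mainly through PDGFRA, whereas PDGF-B binds both receptors and PDGF-D mainly PDGFRB. PDGF-A and PDGF-B are cut by proteases inside the cell. PDGF-C and PDGF-D are secreted in a latent form and are activated outside it by proteases such as the plasminogen activators. In vessels, endothelial PDGF-B recruits pericytes that carry PDGFRB. In adipose tissue, PDGFRA marks adipose stem and progenitor cells (ASPCs) and is the gene by which such cells are usually sorted.

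In the mouse GRCm38 (mm10) assembly with GENCODE M21, Pdgfra (ENSMUSG00000029231) lay on chromosome 5 from 75152292 to 75198215, on the plus strand. Pdgfrb (ENSMUSG00000024620) lay on chromosome 18 from 61045150 to 61085061, on the plus strand. Pdgfa (ENSMUSG00000025856) was on chromosome 5 from 138976014 to 138997370 and Pdgfb (ENSMUSG00000000489) on chromosome 15 from 79995874 to 80014977, both on the minus strand. Pdgfc (ENSMUSG00000028019) spanned 81036416 to 81214040 of chromosome 3, and Pdgfd (ENSMUSG00000032006) 6168584 to 6378850 of chromosome 9, both on the plus strand. All are protein-coding. Genes on the opposite strand overlapped every member except Pdgfrb.

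After filtering, 9294 LFD cells (median 10223 UMIs) and 7879 HFD cells (median 12721 UMIs) were used, of which 21 barcodes occurred in both libraries. The cells formed 16 clusters, which were named from marker genes without any PDGF member, so that the name of a type does not rest on the genes described. The ending -like marks a name given by these markers only. Cluster 0, with 3049 LFD and 1285 HFD cells, had 6 of 8 Wt1+ stromal markers and 8 of 12 keratin-high mesothelial markers above the level set for naming, and led with Saa3, Ereg and Itm2a. None of its 10 leading genes was on the Wt1+ list and 1 of them, Ncam1, was on a Schwann cell list, so it is called by its number alone, and it is counted with the stromal types on its markers. The mesothelial-like (1752 LFD and 1584 HFD cells), cycling mesothelial-like (899 and 565) and APC-like (216 and 575) cells, the last being the fibroblastic adipose progenitors, completed the stroma. None of the 10 leading genes of the cycling mesothelial-like cells was on the keratin-high list either (Anln, Cdc20, Hmmr and Kif20a, which act in cell division, were among them), and their name rests on 11 of 12 keratin-high markers above the level. They also had 6 of 8 Wt1+ stromal markers above it. Their summed keratin level with LFD, 6737 CPM, lay between cluster 0 (5649 CPM) and mesothelial-like cells (8739 CPM). Whether they mix cycling cells of both was not tested. Outside it, endothelial-like (662 and 604), macrophage-like (591 and 526), mural-like (11 and 71), dendritic cell-like, neutrophil-like, T/ILC2-like, B-like and plasma cell-like cells were found, and 58 LFD and 89 HFD cells stayed unnamed. The mural-like cluster had 12 of 12 mural markers and also 12 of 12 endothelial markers above that level. Its Pdgfa, Pdgfb and Pdgfd counts are therefore also read by whether cells had at most 2 or at least 3 endothelial markers.

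The PDGF system was split between compartments, with the receptors in stroma and mural-like cells and most Pdgfb in endothelial-like and macrophage-like cells. Levels are counts of UMIs summed over the cells of a type in a library, per 1000000 UMIs (CPM). One UMI stands for 1 captured molecule whatever the length of the transcript. Intervals are exact 95% Poisson intervals, which cover counting error only. Stroma held 99.0% of all Pdgfra UMIs in each library. For Pdgfrb this was 96.4% with LFD and 87.2% with HFD, where mural-like cells held another 10.6%. For Pdgfb, 75.1% of LFD and 62.5% of HFD UMIs were in endothelial-like cells, which were 7.12% and 7.67% of the cells, and 16.8% and 26.3% were in macrophage-like cells.

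**Figure D1:**
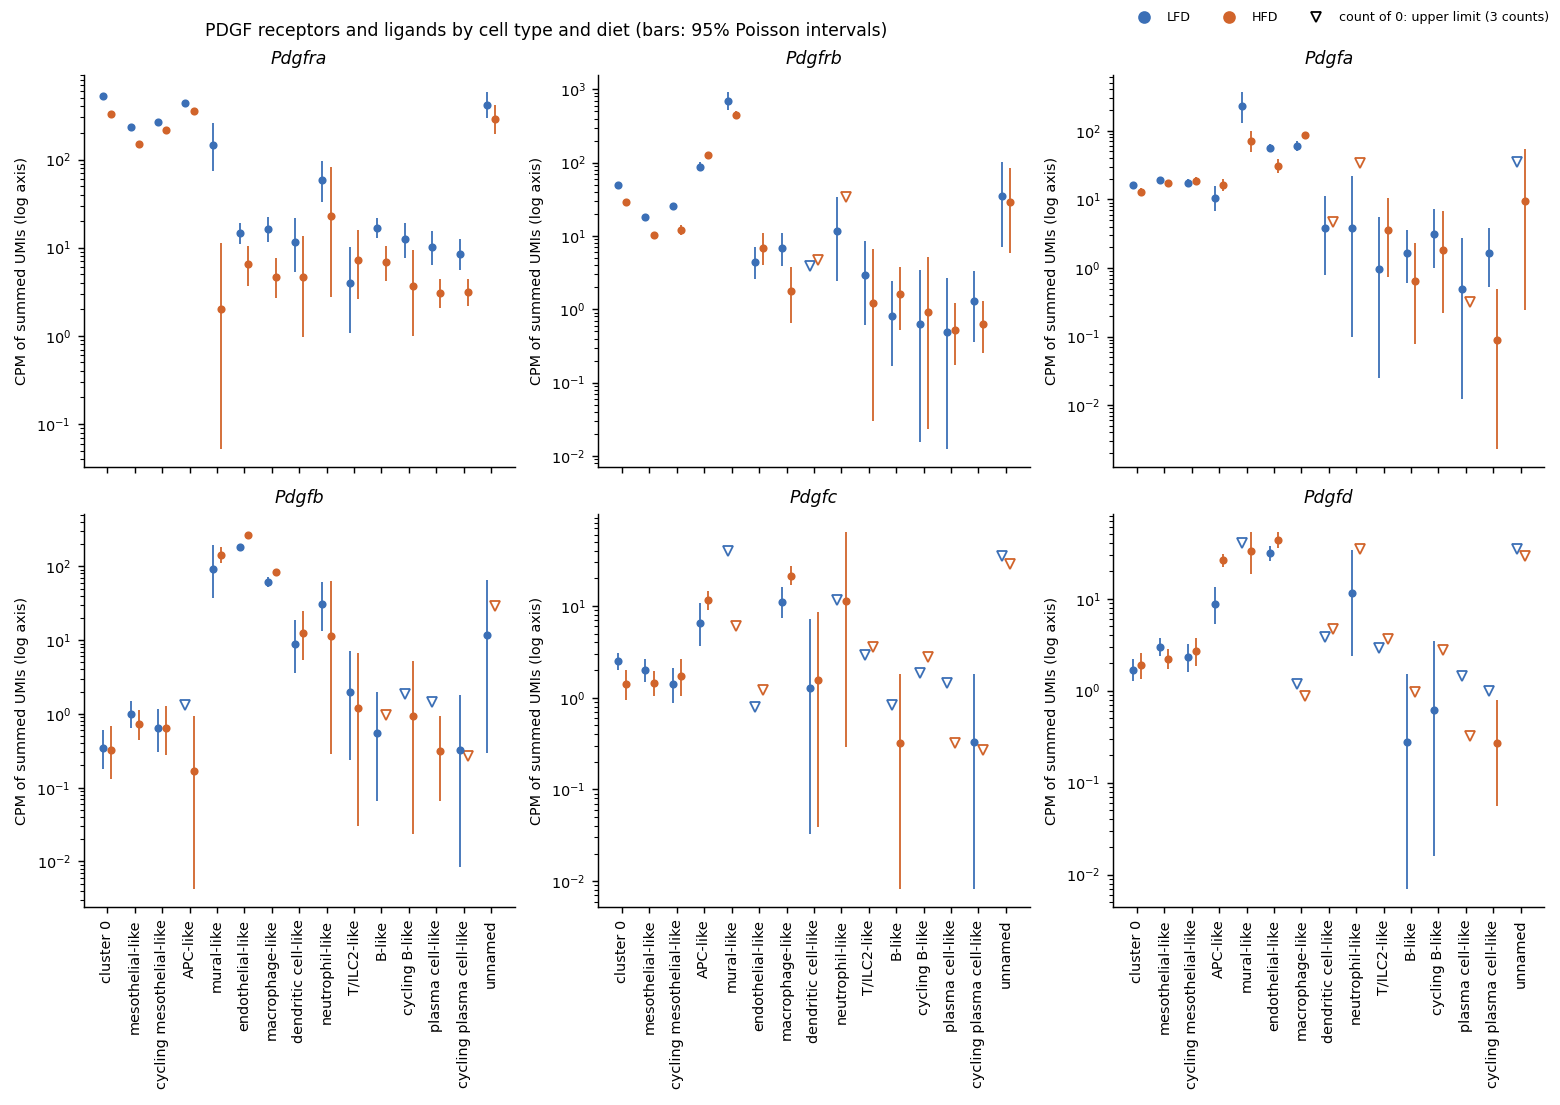
Level of each member (CPM of summed UMIs, log axis) in 14 cell types, cluster 0 among them, and the unnamed cells, for LFD and HFD. Points are the 1 library per diet, bars exact 95% Poisson intervals, and open triangles the limit that a count of 0 allows (3 counts). Apart from the unnamed cells, receptors are highest in stroma and mural-like cells, Pdgfb and Pdgfd in endothelial-like cells, and Pdgfc in macrophage-like and APC-like cells.

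The highest Pdgfra levels were in cluster 0, at 529 CPM (521 to 536) with LFD and 332 CPM (325 to 340) with HFD, and in APC-like cells, with 434 CPM (408 to 462) and 357 CPM (342 to 373). Their order was therefore not the same in both libraries, with cluster 0 above APC-like cells under LFD and below them under HFD. Cycling mesothelial-like cells came next, at 268 CPM (260 to 277) with LFD and 215 CPM (207 to 223) with HFD. Mesothelial-like cells had 234 CPM (228 to 240) and 152 CPM (147 to 156). Within each library the intervals of the 4 stromal types did not overlap. When cells were assigned one by one from their own marker UMIs instead of by cluster, the mean level of cluster 0 over that of APC-like cells was 0.997. Among cells thinned to 2000 UMIs, so that depth did not set detection, 61.4% of LFD (59.6 to 63.1%) and 43.7% of HFD (41.0 to 46.5%) cluster 0 cells had a Pdgfra UMI. Of APC-like cells, Pdgfra was detected in 55.2% (48.2 to 62.1%) and 49.9% (45.7 to 54.2%), with exact Clopper-Pearson 95% intervals. Without thinning, 96.3% of LFD and 93.4% of HFD cluster 0 cells and 92.1% and 90.3% of APC-like cells had a UMI.

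In endothelial-like, macrophage-like and B-lineage cells, Pdgfra was low and was set beside an estimate of the RNA that leaks between droplets. B-like cells, which should lack the receptor, had 16.8 CPM with LFD (12.8 to 21.5) and 6.80 CPM with HFD (4.21 to 10.4). After thinning, 3.62% of LFD and 1.17% of HFD B-like cells had a Pdgfra UMI, and without thinning 6.39% and 2.82%. The median depth of these cells before thinning was 3715 and 4011 UMIs, against 10771 and 16426 in cluster 0. An estimate of leaked RNA, from the share of stromal, endothelial and macrophage marker levels seen in B-like cells, came to 11.7 CPM of Pdgfra with LFD and 5.01 CPM with HFD. Endothelial-like cells (14.7 and 6.45 CPM) and macrophage-like cells (16.4 and 4.70 CPM) had estimates of 10.6 and 5.91 CPM and of 13.7 and 3.55 CPM. With LFD, the intervals of B-like and endothelial-like cells (11.1 to 19.1 CPM) lay above their estimates. The endothelial-like and macrophage-like levels were no higher than the B-like ones in either library, and the part of leaked RNA in the remainder over the estimate was not tested.

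Pdgfrb was highest in mural-like cells by a wide margin. It reached 693 CPM (518 to 909) in the 11 LFD cells and 448 CPM (391 to 512) in the 71 HFD cells, and 45 of 69 thinned HFD cells (65.2%, 52.8 to 76.3%) had a UMI. In mural-like cells with at most 2 endothelial markers it was 955 CPM in 3 LFD cells and 745 CPM in 4 HFD cells, and in those with at least 3 it was 482 and 441 CPM. APC-like cells were next, at 88.5 CPM (76.8 to 102) with LFD and 125 CPM (117 to 135) with HFD, and the intervals of mural-like and APC-like cells did not overlap. Cluster 0 had 49.5 CPM (47.2 to 51.9) and 29.3 CPM (27.0 to 31.7), below APC-like cells in both libraries. Cycling mesothelial-like cells (25.5 and 12.1 CPM) and mesothelial-like cells (18.2 and 10.2 CPM) were lowest in stroma. Endothelial-like cells had 4.46 CPM (2.60 to 7.14) and 6.85 CPM (3.99 to 11), with 3.31 and 2.70 CPM in those with no mural marker and 7.28 and 13.0 CPM in those with at least 1. B-like cells had 0.824 and 1.62 CPM, and dendritic cell-like cells had a count of 0, which allows up to 3.85 and 4.66 CPM.

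The balance of the receptors set APC-like cells apart from the rest of stroma. Pdgfrb made up 16.9% (14.8 to 19.2%) of the UMIs of both receptors in LFD and 26.0% (24.4 to 27.6%) in HFD APC-like cells. In cluster 0 it made up 8.57% (8.18 to 8.96%) and 8.09% (7.49 to 8.72%), which overlapped between diets. In cycling mesothelial-like cells it made up 8.67% (7.87 to 9.52%) with LFD and 5.34% (4.53 to 6.24%) with HFD. In mural-like cells 52 of 63 LFD and 220 of 221 HFD receptor UMIs were Pdgfrb, and all 11 Pdgfra UMIs of the LFD mural-like cells came from 1 cell, which was among the 3 with at most 2 endothelial markers.

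The receptors were also read in single cells thinned to 2000 UMIs. Of APC-like cells with a Pdgfra UMI, 19.8% (13.0 to 28.3%) with LFD and 25.4% (20.3 to 30.9%) with HFD also had a Pdgfrb UMI, against 17.0% (10.1 to 26.2%) and 19.9% (15.3 to 25.0%) of those without. In cluster 0 the shares were 10.0% (8.71 to 11.5%) against 7.59% (6.14 to 9.25%) with LFD and 6.10% against 5.86% with HFD. The intervals overlapped in these 4 comparisons, and the differences were not tested. The order was the same, also with overlap, in mesothelial-like cells (3.15% against 2.79% with LFD and 3.16% against 2.09% with HFD) and LFD cycling mesothelial-like cells (7.98% against 4.55%). Only in HFD cycling mesothelial-like cells was it the other way, at 1.64% against 2.09%, also with overlap. Without thinning, where deeper cells are more likely to have a UMI of either gene, the shares were 38.2% (36.4 to 40.0%) against 25.9% (18.1 to 35.0%) in LFD cluster 0 and 62.0% (57.7 to 66.2%) against 42.9% (29.7 to 56.8%) in HFD APC-like cells, with intervals that did not overlap. In HFD cluster 0 (34.4% against 22.4%) and LFD APC-like cells (58.3% against 35.3%) the intervals overlapped. Of thinned mesothelial-like cells with a Pdgfra UMI, 6.13% (4.35 to 8.35%) had a Pdgfa UMI with LFD, against 2.88% (1.99 to 4.02%) of those without. With HFD the corresponding shares were 3.42% and 3.51%, and in HFD cluster 0 the order was the other way, at 1.26% (0.507 to 2.57%) against 3.63% (2.38 to 5.27%), with overlap. After thinning, Pdgfa detection thus had no common direction across types. Without thinning, it was higher in cells with a Pdgfra UMI in all 4 stromal types and both libraries. Examples are LFD cluster 0 (16.3% against 8.04%) and HFD mesothelial-like cells (23.0% against 19.7%).

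Pdgfb, which encodes the ligand of both receptors, had its highest level in endothelial-like cells, at 181 CPM (168 to 195) with LFD and 270 CPM (250 to 291) with HFD. After thinning, 28.7% (24.7 to 33.0%) and 37.6% (33.0 to 42.3%) of these cells had a UMI, against 0 of 884 LFD and 0 of 686 HFD B-like cells, which allows a share of thinned cells with a UMI of up to 0.339% and 0.437%. Thinning left out 188 LFD and 170 HFD endothelial-like cells, and without it the shares were 50.5% and 54.8%, against 2 of 924 LFD (0.216%) and 0 of 709 HFD B-like cells. Macrophage-like cells had 61.4 CPM (52.1 to 71.9) and 82.5 CPM (73.2 to 92.8). The leaked RNA estimate for Pdgfb in macrophage-like cells was 2.91 and 2.72 CPM, so their level was well above it. Platelets also hold PDGF. Of 6 platelet markers, 2 had a UMI in LFD and 3 in HFD macrophage-like cells, with summed levels of 286 and 133 CPM, while Gp9, Gp1bb and Gp6 were at 0 in both. The part of platelet RNA in the Pdgfb level was not tested.

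Mural-like cells had 93.4 CPM (37.5 to 192) of Pdgfb with LFD, overlapping endothelial-like cells, and 143 CPM (111 to 180) with HFD, below them. The 3 LFD and 4 HFD mural-like cells with at most 2 endothelial markers had a count of 0, which allows up to 89.5 and 248 CPM. Both limits lie within or above the interval of the whole cluster, so a lower Pdgfb level in these cells was not detectable at this depth. Endothelial marker levels in the HFD mural-like cluster were at a median of 68.6% of those of endothelial-like cells, and the level of Pdgfb that this carries over came to 185 CPM. Dendritic cell-like cells had 8.98 CPM (3.61 to 18.5) and 12.4 CPM (5.37 to 24.5), from 7 and 8 UMIs. In stroma Pdgfb stayed at or below 1.00 CPM in every type.

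Pdgfd, which encodes a latent ligand of PDGFRB, was also highest in endothelial-like cells among types that had 100 cells or more on each diet, at 31.2 CPM (25.8 to 37.3) with LFD and 43.5 CPM (35.7 to 52.6) with HFD. APC-like cells were next and differed between the libraries, at 8.72 CPM (5.33 to 13.5) and 26.0 CPM (22.1 to 30.5). The other stromal types had 1.69 to 3.01 CPM. Macrophage-like cells had no Pdgfd UMI in either library, which allows up to 1.2 and 0.881 CPM. In mural-like cells the 16 HFD UMIs (32.6 CPM, 18.6 to 53.0, overlapping endothelial-like cells) were all in cells with at least 3 endothelial markers, beside a carry-over estimate of 30.0 CPM. The count of 0 in the 4 HFD cells with at most 2 allows up to 248 CPM, far above the level of the cluster.

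Pdgfa, which encodes a ligand of PDGFRA, was the most widely spread ligand. Macrophage-like cells had 59.8 CPM (50.6 to 70.2) with LFD and 87.0 CPM (77.3 to 97.4) with HFD. Endothelial-like cells had 56.1 CPM (48.8 to 64.2) and 31.0 CPM (24.5 to 38.8), so these types overlapped with LFD and stood apart with HFD. Mural-like cells had 227 CPM (132 to 363) with LFD, from 17 UMIs in 11 cells, and 71.3 CPM (49.7 to 99.2) with HFD. Of the 17 LFD UMIs, 13 were in the 3 cells with at most 2 endothelial markers (388 CPM, 206 to 663), and cells with at least 3 had 96.5 CPM (26.3 to 247). With HFD, 34 of 35 UMIs were in cells with at least 3 (71.1 CPM). The 4 stromal types had 10.5 to 19.3 CPM, and together they held 76.9% of LFD and 72.0% of HFD Pdgfa UMIs, with 63.7% and 50.9% of the cells and 80.5% and 67.2% of all UMIs. B-like cells had 1.65 and 0.648 CPM, and plasma cell-like cells had 1 UMI with LFD and 0 with HFD.

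Pdgfc, which encodes a latent ligand of PDGFRA, was the rarest member, with 205 LFD and 236 HFD UMIs in all types. Macrophage-like cells had 11.2 CPM (7.42 to 16.1) and 21.4 CPM (16.8 to 27.0), and APC-like cells 6.54 CPM (3.66 to 10.8) and 11.5 CPM (8.96 to 14.6), so these types overlapped with LFD and stood apart with HFD. The other stromal types had 1.41 to 2.52 CPM. Endothelial-like cells had no Pdgfc UMI in either library, which allows up to 0.787 and 1.21 CPM. The macrophage-like and endothelial-like cells thus each lacked 1 of the latent ligands, Pdgfd and Pdgfc respectively, at this depth.

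The comparison between diets asked whether the PDGF system of eYFP+ cells differed after 12 weeks of HFD. With HFD, both receptors had a lower CPM in cluster 0, mesothelial-like and cycling mesothelial-like cells, whereas in APC-like cells Pdgfra was 0.822-fold, Pdgfrb 1.42-fold and Pdgfd 2.99-fold the LFD level. In macrophage-like cells Pdgfc was 1.92-fold, Pdgfa 1.45-fold and Pdgfb 1.34-fold the LFD level, and in endothelial-like cells Pdgfb was 1.49-fold, Pdgfd 1.40-fold and Pdgfa 0.553-fold. Ratios are HFD CPM over LFD CPM with an exact conditional 95% interval, for the 11 types that had 100 cells or more on each diet and for pairs of gene and type with at least 50 UMIs. With 1 library per diet there is no p-value, and diet, mice and library cannot be told apart. Of 66 pairs, 30 had enough UMIs, of which 12 were past 1.5-fold lower with HFD, 4 past 1.5-fold higher and 14 within. Of all genes tested, 3.32% to 13.7% were past 1.5-fold lower, depending on the type, and 7.21% to 17.3% past 1.5-fold higher in stromal, endothelial-like and macrophage-like cells. Of the 12 lower pairs, 5 were Pdgfra in types outside stroma, where its level was low. The median gene of a type had a log2 ratio of -0.14 (plasma cell-like) to 0.14 (endothelial-like), against which the ratios below can be read.

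**Figure D2:**
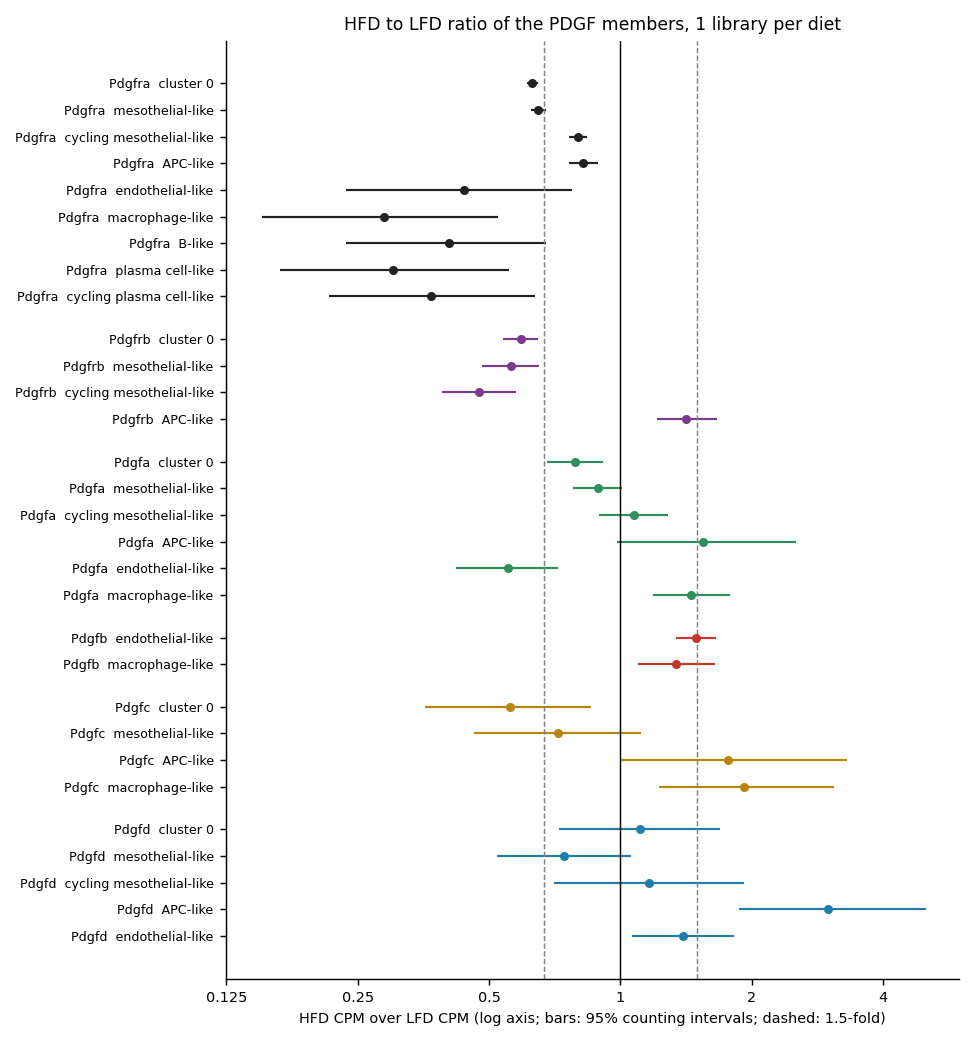
HFD to LFD ratio of CPM (log axis) for the 30 pairs of member and cell type with at least 50 UMIs. Points are the ratio of the 2 libraries, bars exact 95% intervals for counting error and dashed lines 1.5-fold. Pdgfra ratios all lie below 1, Pdgfrb lies below 1 in 3 stromal types and at 1.42 in APC-like cells, and Pdgfd in APC-like cells has the highest ratio, 2.99.

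As a share of all UMIs, Pdgfra was lower with HFD in all 4 stromal types. The ratio was 0.629 (0.612 to 0.646) in cluster 0 and 0.648 (0.623 to 0.675) in mesothelial-like cells, both past 1.5-fold. It was 0.80 (0.762 to 0.840) in cycling mesothelial-like cells and 0.822 (0.762 to 0.888) in APC-like cells, both within 1.5-fold. Median depth was 10771 UMIs with LFD and 16426 UMIs with HFD in cluster 0. It was 13787 and 17320 in mesothelial-like, 17158 and 21510 in cycling mesothelial-like and 10368 and 10232 in APC-like cells. A lower CPM is a smaller share of all UMIs, and the amount per cell was not compared for either receptor. With cells assigned one by one, the ratio in mesothelial-like cells was 0.836, within 1.5-fold, and with clustering at a resolution of 0.6 it was 0.667, at that limit. Of all genes tested, 7.28% were past 1.5-fold lower in cluster 0, 3.32% in mesothelial-like cells, 3.77% in cycling mesothelial-like cells and 5.4% in APC-like cells. Pdgfra was also past 1.5-fold lower in endothelial-like (0.439), macrophage-like (0.287), B-like (0.406), plasma cell-like (0.301) and cycling plasma cell-like (0.368) cells. There 7.93%, 4.24%, 6.33%, 13.7% and 4.78% of all genes were past 1.5-fold lower. In the other 4 of these types the level was no higher than that of B-like cells in either library. The leaked RNA estimate was also lower with HFD, at 11.7 and 5.01 CPM in B-like cells. Plasma cell-like cells had 10.2 CPM (6.33 to 15.6) with LFD and 3.08 CPM with HFD, beside estimates of 5.50 and 2.51 CPM. Cycling plasma cell-like cells had 8.54 CPM (5.58 to 12.5) and 3.14 CPM, beside 5.44 and 2.36 CPM, so both LFD intervals lay above the estimate. With cells assigned one by one the ratio was 1.43 (0.986 to 2.08) in B-like cells, 0.172 (0.10 to 0.293) in plasma cell-like, 0.234 (0.159 to 0.342) in cycling plasma cell-like, 0.396 in endothelial-like and 0.266 in macrophage-like cells. The part of leaked RNA in these 5 of the 12 lower pairs was not tested.

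Pdgfrb was past 1.5-fold lower with HFD in cluster 0 (0.591, 0.538 to 0.648), mesothelial-like cells (0.562, 0.482 to 0.653) and cycling mesothelial-like cells (0.475, 0.391 to 0.575). In APC-like cells its ratio was 1.42 (1.21 to 1.66), above 1 and within 1.5-fold. The intervals of APC-like cells and of the other stromal types did not overlap, so the ratios lay on opposite sides of 1 within stroma, beyond counting error. With cells assigned one by one, the Pdgfrb ratio was 1.1 (0.879 to 1.39) in mesothelial-like cells, on the other side of 1, while it stayed below 1 in cluster 0 (0.631) and cycling mesothelial-like cells (0.609) and above 1 in APC-like cells (1.49). With clustering at a resolution of 0.6, it was 0.779 (0.638 to 0.952) in mesothelial-like cells, within 1.5-fold. In the mural-like cells, too few in the LFD library for a ratio, the interval with LFD (518 to 909 CPM) lay just above that with HFD (391 to 512 CPM). The makeup differed, since 3 of 11 LFD and 4 of 71 HFD cells had at most 2 endothelial markers, and in cells with at least 3 the ratio was 0.914 (0.577 to 1.53), an interval that includes 1.

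The lower receptor levels were seen in each keratin tertile. Cluster 0 shares keratin markers with mesothelial-like cells, and the summed keratin level of cluster 0 was 5649 CPM with LFD and 4190 CPM with HFD, so cells were split into tertiles by the keratin-high list within each type, a split chosen after the data were seen. In cluster 0, Pdgfra was 546 CPM with LFD and 363 CPM with HFD in the lowest tertile, 538 and 309 CPM in the middle and 509 and 326 CPM in the highest. The ratios were 0.666 (0.635 to 0.697), 0.575 (0.549 to 0.602) and 0.641 (0.609 to 0.675). In mesothelial-like cells they were 0.643, 0.587 and 0.714, and in cycling mesothelial-like cells 0.809, 0.699 and 0.845. For Pdgfrb the ratio in cluster 0 ran from 0.552 in the lowest to 0.648 in the highest tertile, and in cycling mesothelial-like cells it was 0.555 (0.423 to 0.724), 0.382 and 0.318 (0.190 to 0.508) from the lowest to the highest. In mesothelial-like cells the Pdgfrb ratio was 0.397 (0.309 to 0.507) in the lowest tertile and 0.759 (0.546 to 1.05) in the highest, where the interval includes 1. With LFD, Pdgfrb in mesothelial-like cells was 25.3 CPM in the lowest keratin tertile and 11 CPM in the highest.

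**Figure D3:**
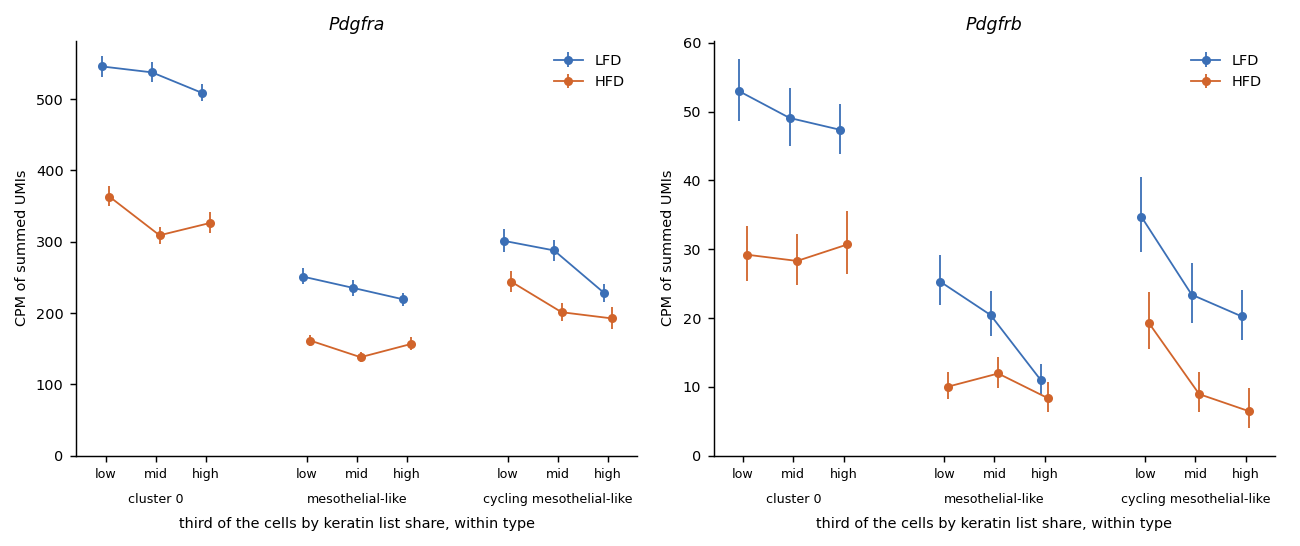
Pdgfra (left) and Pdgfrb (right) in tertiles of cells by the summed share of keratin-high markers (low, mid, high on the horizontal axis), within 3 stromal types, in CPM of summed UMIs. Points are 1 library each and bars 95% Poisson intervals. The HFD points lie below the LFD points in every tertile, and only for Pdgfrb in the highest mesothelial-like tertile (11 and 8.32 CPM) do the intervals overlap.

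In APC-like cells, Pdgfd had the largest diet ratio of any member, 2.99 (1.87 to 5.02), from 20 LFD and 156 HFD UMIs. Pdgfc (1.76, 0.997 to 3.31) and Pdgfa (1.55, 0.981 to 2.53) were past 1.5-fold as well, with intervals that include 1, and with cells assigned one by one the Pdgfa ratio was 0.989. The Pdgfa ratio was also within 1.5-fold with doublets kept (1.31) and with median-ratio scaling (1.48). Of all genes, 15.4% were past 1.5-fold higher with HFD in APC-like cells, so being past 1.5-fold was not rare there. The APC-like cells also differed in makeup. Cells with more markers of the Icam1+ preadipocyte list were 94.9% of LFD and 81.7% of HFD APC-like cells, and cells with more of the Dpp4+ progenitor list 2.31% (5 cells) and 9.57% (55 cells). Within the Icam1+ cells alone, the Pdgfd ratio was 2.97 (1.82 to 5.09), from 8.60 to 25.5 CPM, and the Pdgfrb ratio 1.54 (1.31 to 1.81). The Pdgfa ratio there was 1.62 (1.02 to 2.67), and the Pdgfc ratio was 1.34 (0.735 to 2.59), no longer past 1.5-fold. Within HFD, Pdgfrb was 139 CPM (129 to 150) in Icam1+ and 41.2 CPM (26.1 to 61.9) in Dpp4+ cells, and Pdgfc was 9.11 CPM (6.65 to 12.2) and 23.3 CPM (12.4 to 39.9). The subsets thus differed in Pdgfrb and Pdgfc beyond counting error, while Pdgfd was at 25.5 and 26.9 CPM.

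In endothelial-like cells the ligands differed in direction between the diets. Pdgfb had a ratio of 1.49 (1.34 to 1.66) and Pdgfd of 1.40 (1.07 to 1.83), both above 1 and within 1.5-fold (1.62 and 1.61 with the stricter cell filter, past it), whereas Pdgfa had a ratio of 0.553 (0.421 to 0.721), past 1.5-fold lower. Of all genes, 17.3% were past 1.5-fold higher and 7.93% past 1.5-fold lower in these cells. Endothelial-like cells with more arterial markers (Gja4 and Gja5 among them) were 31.4% of LFD and 45.5% of HFD cells, and those with more venous markers (Ackr1 and Selp among them) 20.7% and 9.60%. They are called arterial and venous cells below by these lists alone, from at least 2 markers, and whether they are capillary cells was not tested. Median depth of endothelial-like cells was 3984 UMIs with LFD and 2899 UMIs with HFD.

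Arterial cells carried more Pdgfb than venous cells in both libraries. With LFD the level was 223 CPM in arterial and 114 CPM in venous cells, which is 1.95-fold (1.57 to 2.43). With HFD it was 292 CPM in arterial and 143 CPM in venous cells, which is 2.04-fold (1.5 to 2.84). Cells with neither had 185 CPM (163 to 209) with LFD and 283 CPM (248 to 322) with HFD. These intervals overlapped those of arterial cells, 200 to 249 CPM with LFD and 264 to 322 CPM with HFD, so a high Pdgfb level was not particular to arterial cells. Pdgfd was 2.21-fold (1.06 to 5.30) higher in arterial than in venous cells with HFD and 1.07-fold (0.677 to 1.71) with LFD. The diet ratio of Pdgfb was 1.31 (1.13 to 1.52) in arterial cells, 1.25 (0.867 to 1.77) in venous cells and 1.53 (1.27 to 1.84) in cells with neither. Weighted over these subsets it came to 1.38, against 1.49 in all endothelial-like cells. Pdgfa was lower with HFD in arterial (0.391, 0.259 to 0.577) and venous cells (0.370, 0.130 to 0.863), and in cells with neither the ratio was 0.918 (0.589 to 1.41). In endothelial-like cells with no mural marker, the Pdgfb ratio was 1.68 (1.48 to 1.92), and in those with at least 1 it was 1.2 (0.990 to 1.46), an interval that includes 1.

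**Figure D4:**
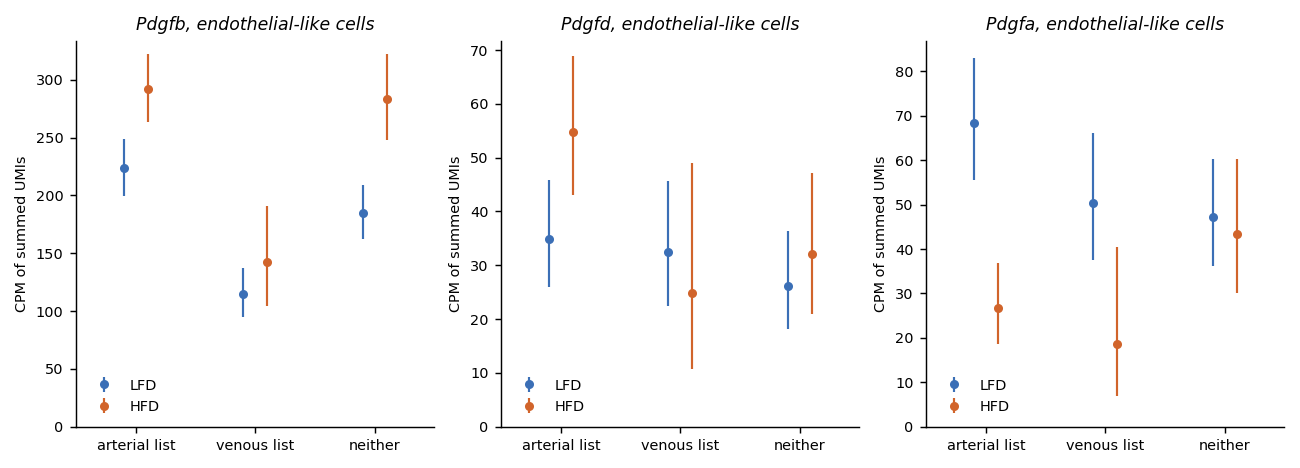
Pdgfb, Pdgfd and Pdgfa (CPM of summed UMIs) in endothelial-like cells with more arterial markers, more venous markers or neither, for LFD and HFD. Points are 1 library each and bars 95% Poisson intervals. Pdgfb is higher in arterial than in venous cells in both libraries, and cells with neither overlap the arterial ones. Pdgfa in arterial cells is 68.3 CPM with LFD and 26.7 CPM with HFD.

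In macrophage-like cells the 3 ligands with a UMI had ratios above 1 beyond counting error, of which Pdgfc alone was past 1.5-fold. Pdgfc had a ratio of 1.92 (1.23 to 3.08), past 1.5-fold, where 7.43% of all genes were past 1.5-fold higher. Pdgfa had 1.45 (1.19 to 1.78) and Pdgfb 1.34 (1.1 to 1.65), both above 1 and within 1.5-fold. After thinning, the shares of cells with a UMI overlapped between diets, at 2.40% (1.24 to 4.15%) and 5.32% (3.5 to 7.69%) for Pdgfc, at 9.58% (7.15 to 12.5%) and 10.6% (8.04 to 13.7%) for Pdgfa and at 11.6% (8.91 to 14.7%) and 13.5% (10.6 to 16.8%) for Pdgfb. Median depth of these cells was 4283 UMIs with LFD and 6223.5 UMIs with HFD.

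Most ligand ratios in the other stromal types were within 1.5-fold. Pdgfa had a ratio of 0.788 (0.680 to 0.912) in cluster 0 and 0.989 there with cells assigned one by one, and in mesothelial-like (0.888) and cycling mesothelial-like cells (1.07) the interval includes 1. Pdgfc was past 1.5-fold lower in cluster 0 (0.559, 0.357 to 0.855), from 88 LFD and 30 HFD UMIs. Pdgfd ratios in cluster 0, mesothelial-like and cycling mesothelial-like cells ran from 0.744 to 1.16 with intervals that include 1. Of the 6 members, APC-like cells thus had a ratio below 1 for Pdgfra, above 1 beyond counting error for Pdgfrb and Pdgfd, and with an interval that includes 1 for Pdgfa and Pdgfc, and Pdgfb was not detectable there beyond 1 UMI.

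Other genes of the pathway were read from a list of 34, comprising proteases that act on the ligands, extracellular binding proteins and co-receptors, signal transducers and inhibitors. In cluster 0, 8 of 33 listed genes with enough UMIs were past 1.5-fold higher with HFD and 1 lower. In mesothelial-like cells these numbers were 7 and 0 of 33, in cycling mesothelial-like cells 5 and 1 of 32 and in APC-like cells 11 and 0 of 32. In endothelial-like cells they were 7 and 0 of 28, and in macrophage-like cells 0 and 1 of 24. Among all genes the shares past 1.5-fold higher were 7.21% in cluster 0, 8.41% in mesothelial-like and 8.09% in cycling mesothelial-like cells, besides those given above for the other types. The median log2 ratio of the listed genes was 0.16 in cluster 0, 0.29 in mesothelial-like, 0.09 in cycling mesothelial-like, 0.38 in APC-like, 0.36 in endothelial-like and 0.01 in macrophage-like cells. The medians of all genes there were 0.08, 0.13, 0.13, 0.11, 0.14 and 0.06.

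Of the inhibitors, 3 met the rule for naming, which is to be past 1.5-fold in the same direction in at least 3 types. Spry2, a feedback inhibitor of receptor tyrosine kinase signalling, was higher with HFD in all 4 stromal types, at 21.4 and 46.1 CPM in cluster 0 (2.16-fold, 1.96 to 2.38), 2.37-fold in mesothelial-like, 1.93-fold in cycling mesothelial-like and 3.58-fold (2.69 to 4.87) in APC-like cells. It was also 3.89-fold (1.99 to 8.17) in T/ILC2-like cells, where 15% of all genes were past 1.5-fold higher. Spry4, a relative of Spry2, was 2.74-fold, 2.03-fold, 2.79-fold and 2.87-fold the LFD level in cluster 0, mesothelial-like, cycling mesothelial-like and APC-like cells. Dusp6, a phosphatase of ERK, was past 1.5-fold higher in cluster 0 (1.99-fold), mesothelial-like (1.89-fold), cycling mesothelial-like (2.13-fold) and endothelial-like cells (1.70-fold, from 70.3 to 119 CPM), and in APC-like cells its ratio was 1.43 (0.882 to 2.40). These genes respond to many receptors besides those of PDGF.

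Among the proteases, Pcsk6, a proprotein convertase, was past 1.5-fold higher in all 4 stromal types, most in APC-like cells (8.28 to 46.1 CPM, 5.56-fold, 3.49 to 9.38) and least in cluster 0 (1.80-fold, 1.15 to 2.82). Plau, which encodes urokinase, was past 1.5-fold higher in cluster 0 (1.88-fold), mesothelial-like cells (1.81-fold) and APC-like cells (4.75-fold, 1.93 to 15.1, from 5 LFD UMIs). Nck2, an adaptor that binds phosphorylated receptors, was 2.13-fold in cluster 0, 2.78-fold in mesothelial-like, 3.04-fold in cycling mesothelial-like and 2.11-fold in endothelial-like cells. It was also past 1.5-fold in plasma cell-like and cycling plasma cell-like cells, with intervals that include 1, where 7.12% and 5.27% of all genes were past 1.5-fold higher.

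Sparc, a matrix protein that binds PDGF-B, was the listed gene lower in most types, past 1.5-fold in 7 of 11. In cluster 0 it was 9564 CPM with LFD and 6003 CPM with HFD (0.628-fold). The other 6 types were macrophage-like (281 and 115 CPM), T/ILC2-like, B-like (212 and 104 CPM), cycling B-like, plasma cell-like and cycling plasma cell-like cells, where Sparc was far below its stromal level. Lymphoid cells should lack Sparc, and the part of leaked RNA in these levels was not tested. In T/ILC2-like cells 7.46% and in cycling B-like cells 4.59% of all genes were past 1.5-fold lower. In endothelial-like cells the ratio was 1.27 (1.24 to 1.30).

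**Figure D5:**
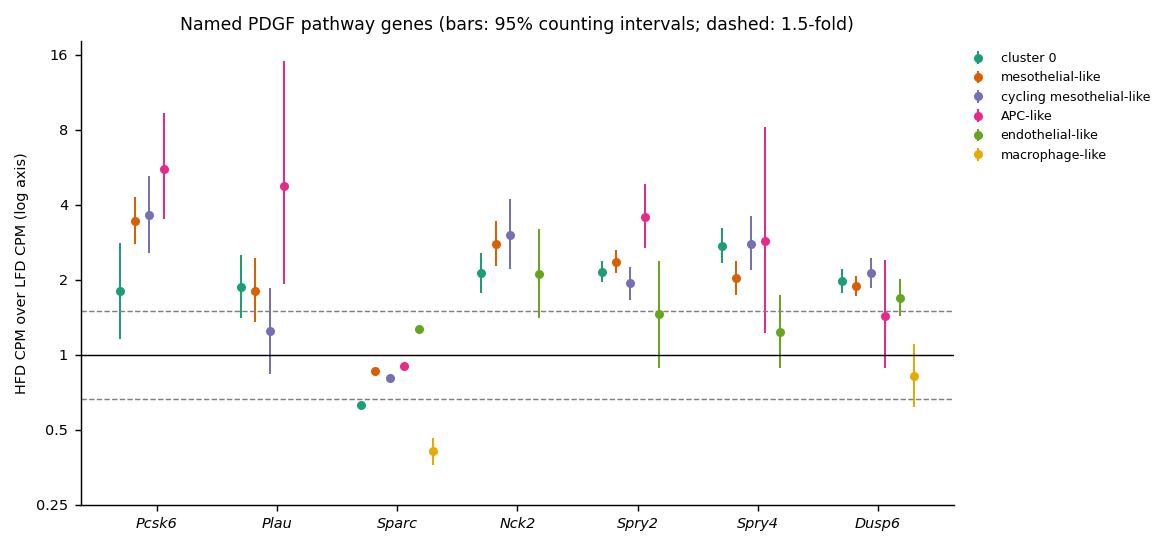
HFD to LFD ratio of CPM (log axis) for the 7 listed pathway genes that were past 1.5-fold in the same direction in at least 3 types, in 6 cell types with at least 50 UMIs. Points are the ratio of the 2 libraries, bars 95% counting intervals and dashed lines 1.5-fold. Spry2, Spry4 and Pcsk6 lie above 1.5-fold in all 4 stromal types, and Sparc lies below 1 in stroma and macrophage-like cells.

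The genes whose levels followed each member most closely were taken from 10255 genes, by Pearson correlation of log2(CPM + 1) over 26 sums, 13 types in each of the 2 libraries. Mural-like cells, where Pdgfrb was highest, were left out because fewer than 20 were in the LFD library. The sums share libraries, depth and leaked RNA, so these values describe the pattern only. Pdgfra went with Gas1 (0.98), Col1a1, Lox, Mgp and Col1a2 (each 0.98), which are matrix and fibroblast genes. Pdgfrb went with Bgn (0.96), Fgf2, Numbl, Col6a3 and Cp. Pdgfa went with Rai14 (0.94), Gab1, Phldb1, Emp1 and Vapb, of which Gab1 is an adaptor on the pathway list. Pdgfb went with Scarf1 (0.93), Cd36, Stom, Tbc1d22a and Cd300lg, Pdgfc with Hexa (0.88), Ifi207, Snx12 and Renbp, and Pdgfd with Lurap1l (0.98), Hoxb5, Atp8b1, Inhbb and Tmem47. Among the members, and without mural-like cells, Pdgfra and Pdgfrb were most alike (0.87) and Pdgfra and Pdgfb least (-0.29).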

How the data were processed

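Single-cell RNA-seq of sorted eYFP+ SVF cells was available as 1 matrix per diet. The authors deposited raw UMI counts per gene and barcode, made with Cell Ranger 4.0.0 on mm10 per the file headers and the submitters' processing notes, which also name STAR, bcl2fastq 2.17.1.14 and Seurat 4.1.0. The other deposited files, of unit other, hold gene and barcode names with no score or measurement. The members and gene lists were chosen with earlier results of these data known.

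There were 11281 barcodes with 114311020 UMIs for LFD, and 9631 with 119498750 for HFD. Cells with 500 to 40000 UMIs, under 12.5% mitochondrial UMIs and at least 100 genes were kept, and Scrublet (scanpy 1.11.5) scores removed 922 LFD and 658 HFD cells at 0.8% per 1000 barcodes. Libraries were integrated in Seurat 5.3.0 (R 4.3.3) on 1989 of 2000 variable genes, without the members and the pathway list, with 30 components and resolution 0.3. Clusters took the name of the marker list with the largest share of markers that 10% of cells or more had a UMI of and whose level exceeded 2 times that of the median cluster, provided this held for 3 markers and 50% of the list. This naming rule was settled after the clusters were seen. The study defines ASPCs by Pdgfra, which was not used here.

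Counts were summed per library and type (numpy 2.4.6, scipy 1.17.1), with exact intervals for counting error, a limit of 3 counts for a count of 0, and ratios for types with at least 100 cells and genes with at least 50 counts. The ratio step was tested on simulated data. Shares used cells thinned to 2000 UMIs, which left out shallower cells. Leaked RNA was estimated from the median marker level of stroma, endothelial-like and macrophage-like cells found in another type. Arterial, venous, Dpp4+ and Icam1+ cells had at least 2 markers of one list and more of it than of the other. Named pathway genes were those past 1.5-fold in the same direction in at least 3 types. The genes most like each member were the 5 with the highest correlation, of which any missing from the text is not reported here. Reported alternatives were another scaling, cell filters, doublets kept, clustering settings, minimum counts and assignment of cells one by one. No feature of the matrices counted eYFP or Cre, so the reporter was not read.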

Additional observations from a re-analysis of the deposited data

Results flagged for a closer look

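For 3 members the HFD to LFD ratio lay on opposite sides of 1 in a pair of cell types, with both counting intervals excluding 1. For Pdgfrb, the APC-like ratio was 2.98 times the cycling mesothelial-like one. For Pdgfa, the ratio in macrophage-like cells was 2.63 times that in endothelial-like cells, and for Pdgfc it was 3.43 times that in cluster 0. Pdgfd ratios were 2.99 in APC-like cells and 0.744 (0.522 to 1.06) in mesothelial-like cells, where the interval includes 1. With 1 library per diet these differences were not tested.

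The unnamed cells, which entered no comparison, had 417 CPM of Pdgfra with LFD and 288 CPM with HFD, from 36 and 30 UMIs. Pdgfra and Wt1 were among their 10 leading genes, and their median depth was 1024 and 963 UMIs.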

How the results depend on the processing

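No paired analysis was possible because each diet has 1 library, and leaving out a library would leave no comparison. Over the 30 ratios, 217 values under other settings stayed within the counting interval, 13 moved beyond it and 3, of ratios past 1.5-fold, changed side of 1. Those 3 came from assigning cells one by one from their own marker UMIs, namely Pdgfra in B-like cells (1.43), Pdgfrb in mesothelial-like cells (1.1) and Pdgfa in APC-like cells (0.989). Ratios whose interval includes 1 also changed side within it, since Pdgfd in cluster 0 kept its side in 5 of 8 settings (lowest 0.883), Pdgfa in cycling mesothelial-like cells in 6 of 8 (0.977) and Pdgfd there in 7 of 8 (0.955). With cells assigned one by one the mean Pdgfra level of cluster 0 over APC-like cells was 0.997, and the Pdgfb level of endothelial-like over mural-like cells was 11. That setting put 1481 LFD and 713 HFD cells in no type, and 70.7% of its cluster 0 cells and 84.8% of its APC-like cells were in the same type by cluster. The cause was not tested. The Pdgfra ratio in cluster 0 was 0.595 with median-ratio scaling and 0.606 with doublets kept. The Pdgfb ratio in endothelial-like cells was 1.32 with median-ratio scaling. The number of pairs past 1.5-fold was 39 with no minimum count and 6 with a minimum of 200 counts, against 16, since fewer or more pairs were then tested. Of the shares of cells with a UMI, 22 values moved and 2 did not when cells were not thinned or were thinned to 5000 UMIs. The Pdgfd ratio in APC-like cells ran from 2.06 to 4.30. Clustering on all 2000 variable genes gave no mural-like cluster. The splits by keratin tertile, arterial or venous markers, Dpp4+ or Icam1+ lists and endothelial markers in mural-like cells were chosen after seeing the data. Single libraries, sparse ligand counts and cells shallower than 2000 UMIs set the limits of these values.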
